A study of Mus musculus with 13 samples.

Results

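The 10 genes described here carry the signal from foreign or self RNA to interferon: Ddx58, Ifih1, Dhx58, Mavs, Tlr3, Tlr7, Myd88, Tbk1, Irf3 and Ifnb1. They were chosen by name from the 19938 genes measured, each through the probe set that lists only its symbol, and each had 1 such probe set. They were followed on 13 arrays, each holding RNA of an erythroid population sorted from fetal liver. The 6 mouse embryos were taken at E14.5 and had the C57JB6 background. Embryos 1, 10 and 11 were Adar1 fl/-, carrying a floxed and a null allele of the gene for ADAR1. Embryos 2, 13 and 15 were Adar1 fl/+ and served as controls. All 6 were EpoR-Cre ki/+, so the control cells carried Cre and a floxed allele too. This Cre is expressed from the erythropoietin receptor locus and recombines in erythroid cells. The R26EYFP reporter was ki/+ in embryos 1, 2, 13 and 15 and +/+ in embryos 10 and 11.

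Ter119- CD71+ cells, the earliest population sorted, came from all 6 embryos, with 3 arrays per genotype. Ter119+ CD71+ cells were represented by 2 knockout arrays (embryos 10 and 11) and 3 control arrays. Ter119+ CD71med cells, a later stage with less of the transferrin receptor CD71, were represented by controls 13 and 15 only. Populations of the same embryo are not independent animals. A log2 signal from a sorted population cannot tell fewer cells of a type from less RNA per cell.

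Adar itself overlapped between the genotypes in both populations. Its log2 signal was 7.39, 7.64 and 7.53 in Ter119- CD71+ cells of embryos 1, 10 and 11, against 7.20, 7.81 and 7.79 in controls 2, 13 and 15. Among Ter119+ CD71+ cells it was 7.68 and 8.10 in embryos 10 and 11, against 7.43, 7.72 and 8.37. The positions of its probes against the floxed part of the gene were not used here, so the signal is no test of the genotypes. Knockout below means the label. Tfrc, which encodes CD71, was measured at 11.76 to 12.52 on all arrays, Klf1 at 9.14 to 10.10 and Gata1 at 9.32 to 10.53. The mean of 9 erythroid markers was between 9.76 and 11.20 on every array.

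RIG-I (Ddx58) and MDA5 (Ifih1) are cytosolic helicases that bind double-stranded RNA and activate MAVS (Mavs), an adaptor on the mitochondrial membrane. LGP2 (Dhx58) is a related helicase that lacks the signalling domain of the other two and tunes them. MAVS recruits the kinase TBK1 (Tbk1), which phosphorylates the transcription factor IRF3 (Irf3), and IRF3 helps to switch on interferon beta (Ifnb1). TLR3 and TLR7 bind RNA in endosomes, and TLR7 signals through the adaptor MyD88 (Myd88). ADAR1 edits double-stranded RNA by deaminating adenosine, which keeps self RNA from activating MDA5. Interferon raises the genes of the helicase sensors in turn.

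Interferon regulatory factors bind DNA with the core AANNGAAA, where N is any base. The 250 bases before the transcription start, from RefSeq on GRCm38.p6, are printed for Ddx58 and Ifih1, sensor genes that were higher in knockout cells, and for Ifnb1, the interferon gene at the end of the pathway, which was not. All 3 lie on the minus strand, and each is written 5′ to 3′ along the gene, with matches to AANNGAAA in capitals. The Ddx58 stretch is chr4:40239826-40240075, that of Ifih1 is chr2:62646256-62646505 and that of Ifnb1 is chr4:88522795-88523044.
Ddx58: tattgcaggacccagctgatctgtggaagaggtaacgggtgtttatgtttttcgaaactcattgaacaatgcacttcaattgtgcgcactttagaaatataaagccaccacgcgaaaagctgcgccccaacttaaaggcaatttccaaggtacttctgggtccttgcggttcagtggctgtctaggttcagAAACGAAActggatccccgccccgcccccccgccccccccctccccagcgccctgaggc
Ifih1: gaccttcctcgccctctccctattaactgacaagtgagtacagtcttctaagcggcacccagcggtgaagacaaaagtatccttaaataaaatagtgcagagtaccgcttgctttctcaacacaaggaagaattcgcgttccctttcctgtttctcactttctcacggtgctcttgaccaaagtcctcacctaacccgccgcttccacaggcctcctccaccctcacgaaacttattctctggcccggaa
Ifnb1: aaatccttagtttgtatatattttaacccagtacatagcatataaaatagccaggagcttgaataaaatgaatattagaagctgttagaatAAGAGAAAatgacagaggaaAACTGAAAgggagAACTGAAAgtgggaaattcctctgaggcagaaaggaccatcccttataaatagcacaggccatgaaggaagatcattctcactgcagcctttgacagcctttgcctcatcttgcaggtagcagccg

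Ddx58 had 1 match in this stretch, at -59 to -52 from the start site. Ifnb1 had 3 matches, beginning at -159, -139 and -126, and 0.849% of 32851 promoter windows had 3 or more in the same 250 bases. Ifih1 had 0 matches upstream and 2 overlapping ones just after the start, at 29 to 36 and 35 to 42. The longer element GAAANNGAAA was present once in Ifih1, at 33 to 42, and once in Ddx58 on the other strand, at 3 to 12. In Myd88 it was at -40 to -31. Both strands were searched, and a GAAANNGAAA match also holds AANNGAAA. Over the whole 300-base windows AANNGAAA was in 23.9% and GAAANNGAAA in 3.44%. Tlr3 had 1 AANNGAAA match, and Mavs, Irf3 and Tbk1 had 0 of either. The table of windows covered 8 of the 10 genes, without Dhx58 and Tlr7. These matches are letters in a window and do not show binding.

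The 3 cytosolic sensor genes rose in knockout cells of both populations, and no other gene of the 10 was called in either. Ddx58 rose 2.70-fold in Ter119- CD71+ and 3.07-fold in Ter119+ CD71+ cells. The rise was 2.81-fold and 2.80-fold for Ifih1, and 2.31-fold and 2.73-fold for Dhx58. The Dhx58 controls had low signals that are not shown to lie above background, so its folds are ratios of signals and may understate the change in RNA. Ifnb1 stayed at a low signal in every group. Calls rest on an adjusted p below 0.05 (limma on all 13 arrays, Benjamini-Hochberg over all genes). This called 2.21% of all genes in Ter119- CD71+ cells, 1.35% of all as higher, and 2.56% in Ter119+ CD71+ cells, 1.48% as higher. Arrays that did not overlap, with knockouts higher, were found for 9.92% of all genes in the first population, 11.4% in the second and 3.28% in both. An unadjusted p under 0.05 was found for 14.2% of all genes in the first and 12.9% in the second, and the counts at that threshold below stand beside these shares.

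Ddx58 had a log2 signal of 7.24, 8.06 and 7.34 in Ter119- CD71+ cells of knockout embryos 1, 10 and 11. Controls 2, 13 and 15 had 5.74, 6.06 and 6.54, so every knockout array lay above every control array, with embryo 10 the highest. The difference was 1.43 on the log2 scale (SE 0.26, 95% interval 0.88 to 1.99, limma adjusted p = 0.0119). Embryos 10 and 11 had 8.03 and 7.39 in Ter119+ CD71+ cells, and the controls 5.71, 6.11 and 6.46. Here too the groups did not overlap, and embryo 10 was again above embryo 11. That difference was 1.62 (SE 0.29, interval 1.0 to 2.24, limma adjusted p = 0.00842). Control Ter119+ CD71med cells had 6.36 and 6.41, within the range of the other controls.

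Ifih1 was at 9.51, 9.82 and 9.72 in knockout Ter119- CD71+ cells, against 7.99, 8.02 and 8.56 in controls. The 3 knockout arrays were within 0.31 of each other and all above the controls. The difference was 1.49 (SE 0.30, interval 0.86 to 2.13, limma adjusted p = 0.0189). Ter119+ CD71+ cells had 10.20 and 9.98 in knockouts and 7.71, 8.82 and 9.30 in controls 2, 13 and 15. The controls were spread far more widely here (SD 0.82, n = 3), with control 15 at 0.68 below the lower knockout array. The difference was 1.48 (SE 0.33, interval 0.77 to 2.19, limma adjusted p = 0.0285). Control Ter119+ CD71med cells had 9.25 and 9.43, close to control 15 of the stage before.

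Dhx58 was the sensor gene with the closest control arrays in both CD71+ populations, at low signal. It had 5.65, 6.76 and 6.12 in knockout Ter119- CD71+ cells and 4.84, 5.05 and 5.03 in controls, a difference of 1.2 (SE 0.20, interval 0.77 to 1.64, limma adjusted p = 0.00822). All knockout arrays were above all controls, with embryo 1 the lowest of them and embryo 10 the highest. Ter119+ CD71+ cells had 6.10 and 6.18 in knockouts and 4.80, 4.6 and 4.68 in controls. Both genotypes were tight in this population and did not overlap. The difference was 1.45 (SE 0.23, interval 0.96 to 1.94, limma adjusted p = 0.00372). Control Ter119+ CD71med cells had 4.70 and 4.95.

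**Figure D1:**
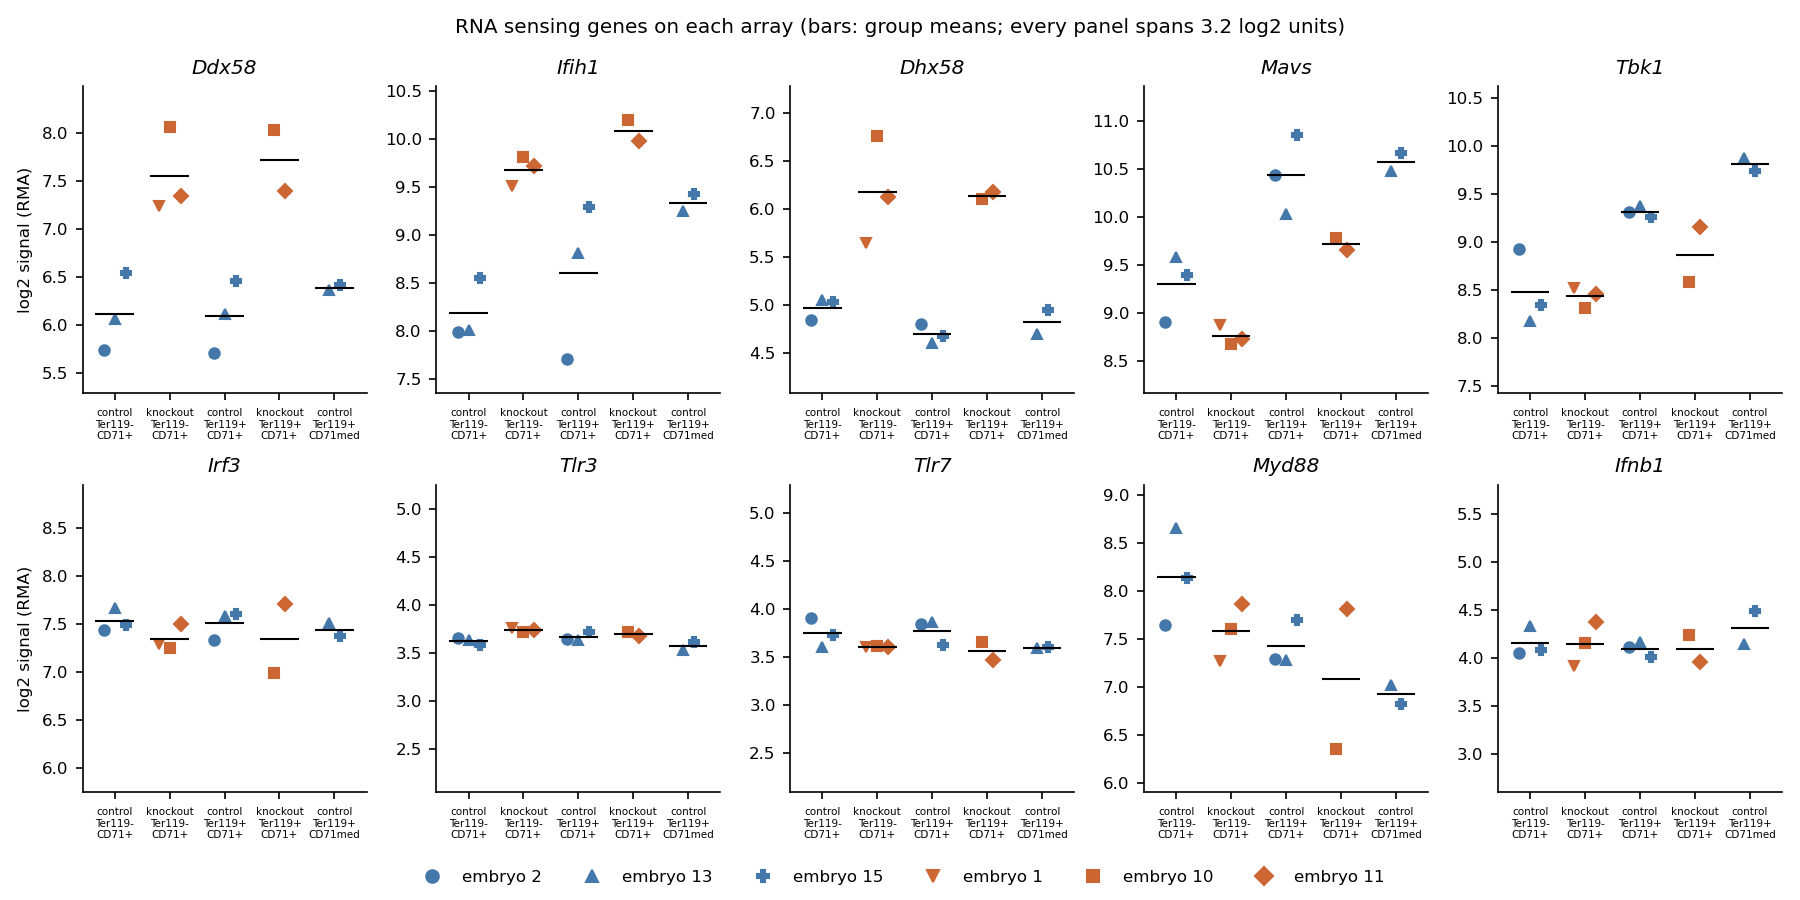
Log2 signal of the 10 genes (vertical axis, a span of 3.2 log2 units in every panel, with its own start) in the 5 groups of cells (horizontal axis); points are arrays with 1 symbol per embryo, orange for knockout and blue for control, and bars are group means. The knockout points of Ddx58, Ifih1 and Dhx58 lie above the control points of the same population, while Tlr3, Tlr7 and Ifnb1 lie between 3.47 and 4.49 on every array.

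The calls of Ddx58 and Ifih1 depended on single arrays, and the size of their differences moved as well. With 1 array left out Ddx58 ran from 1.18 to 1.65 in Ter119- CD71+ and from 1.29 to 1.94 in Ter119+ CD71+ cells. Ifih1 ran from 1.39 to 1.68 and from 1.03 to 1.83. Without the array of embryo 10 the Ter119- CD71+ comparison called 1 of the 10 genes, Dhx58, with Ddx58 at an adjusted p of 0.0599 and Ifih1 at 0.102, though the differences were still 1.18 and 1.42. Leaving out control 13 did the same (0.0593 and 0.0959). Leaving out embryo 10 from the Ter119+ CD71+ cells left 1 knockout array, whose spread was taken from the other groups. Dhx58 was then called at 0.0430, and Ddx58 and Ifih1 were not, at 1.29 (adjusted p = 0.147) and 1.38 (0.237) beside 1.62 and 1.48 with it. Dhx58 kept its call in 6 of 6 single omissions in Ter119- CD71+ cells and in 5 of 5 in Ter119+ CD71+ cells, with a highest adjusted p of 0.0380 and 0.0430.

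The R26EYFP reporter genotype differed within the knockout embryos. With this genotype as a covariate 0 of the 10 genes were called in either population. The reporter term in this fit came from embryo 1 against embryos 10 and 11 in Ter119- CD71+ cells alone. The adjusted difference there is thus embryo 1 against the 3 controls: 1.12 for Ddx58, 1.32 for Ifih1 and 0.68 for Dhx58. In Ter119+ CD71+ cells the fit carries that term over from the other population. Calls kept or lost with this covariate, here and below, thus rest on that 1 array and do not test the reporter. Xist, the RNA of the inactive X chromosome in females, split the knockouts the same way: its log2 signal was 5.31 on the array of embryo 1 and 11.61 to 11.75 on those of embryos 10 and 11, so reporter genotype and sex cannot be told apart among them. The controls held both kinds, with 4.06 to 4.84 in embryo 15 and 10.88 to 11.61 in embryos 2 and 13. Embryo 1, which has the reporter like the controls, was above all 3 controls for each sensor gene, with 7.24, 9.51 and 5.65 as given. All Ter119+ CD71+ knockout arrays came from embryos without the reporter and all control arrays from embryos with it, so reporter and knockout cannot be told apart within that population.

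**Figure D2:**
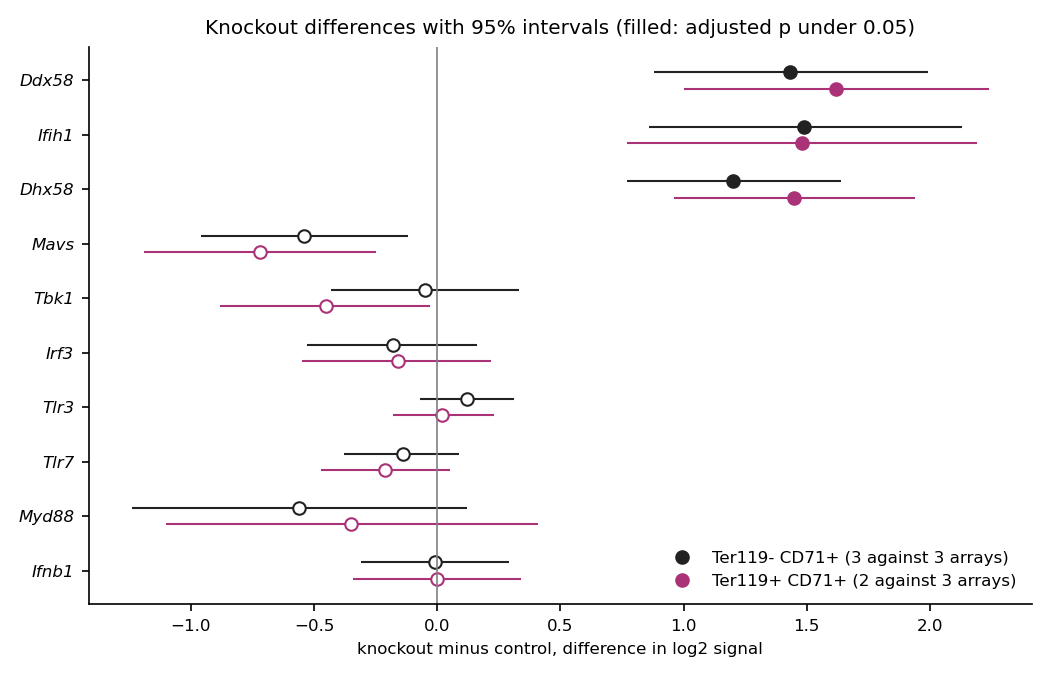
Knockout minus control in log2 signal (horizontal axis) for each of the 10 genes (vertical axis), in Ter119- CD71+ cells (black) and Ter119+ CD71+ cells (purple); points are differences and lines 95% intervals, filled where the adjusted p is under 0.05. Filled points are found for Ddx58, Ifih1 and Dhx58 alone, at 1.2 to 1.62, and the points of the other 7 genes lie between -0.72 and 0.12.

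The size of the knockout difference was not shown to change between the populations for any of the 10 genes. The second population's difference minus the first's was 0.18 for Ddx58 (interval -0.65 to 1.01), -0.01 for Ifih1 (interval -0.96 to 0.94) and 0.24 for Dhx58 (interval -0.41 to 0.90). These intervals leave the embryo out of account. Set within embryos, with embryo as a fixed replicate block (an alternative added after the data were seen, in which embryo 1 carries no weight), the values were 0.03 for Ddx58 (interval -0.39 to 0.44), -0.10 for Ifih1 (interval -0.77 to 0.57) and -0.02 for Dhx58 (interval -0.55 to 0.51). The sign of the unpaired values turned with some single arrays left out. limma called 0 of the 10 genes for this contrast, with 0 at an unadjusted p under 0.05 (5.45% of all genes), and 2 of all genes (0.01%).

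Ddx58 levels stayed close within an embryo across populations. The populations of embryo 10 differed by 0.03, those of embryo 11 by 0.04 and the CD71+ populations of controls 2, 13 and 15 by 0.03, 0.05 and 0.08. Between embryos of the same genotype and population Ddx58 spanned 0.80 in control and 0.82 in knockout Ter119- CD71+ cells. Ifih1 was less steady, with 0.80 between the CD71+ populations of control 13, 0.74 in control 15 and 0.29 in control 2. In Dhx58 the widest gap within an embryo was 0.66, in embryo 10.

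**Figure D3:**
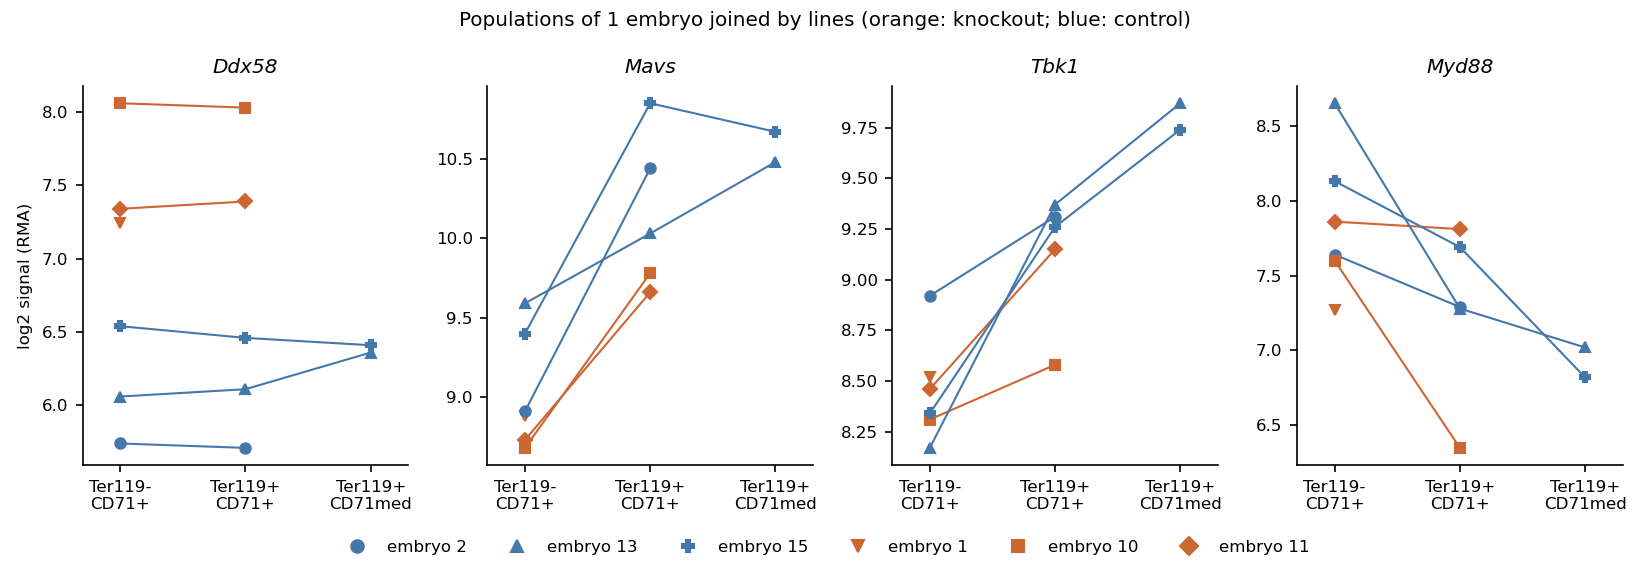
Log2 signal (vertical axis, range set for each gene) of Ddx58, Mavs, Tbk1 and Myd88 in the sorted populations (horizontal axis); lines join populations of the same embryo, orange for knockout and blue for control. Ddx58 lines are nearly flat, with at most 0.30 between the populations of an embryo, and all 5 lines of Mavs and of Tbk1 go up from Ter119- to Ter119+ CD71+ cells.

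Genes that followed the sensors most closely over the 13 arrays were named by Pearson's r, as a description over arrays that share embryos and genotype. For Ddx58 they were Trim30a (r = 0.954), Rtp4 (0.944) and Xaf1 (0.940). For Ifih1 they were Tdrd7 (0.945), Ifi27 (0.942) and Parp12 (0.924). For Dhx58 they were Nupr1 (0.953), Slc7a3 (0.951) and Pfkp (0.949). Likeness to genes that are high on knockout arrays selects for a knockout difference, so theirs are given as values only. Trim30a was at 4.45 in Ter119- CD71+ and 5.04 in Ter119+ CD71+ cells, and Tdrd7 at 0.84 and 1.26. Among the sensors r was 0.914 between Ddx58 and Dhx58, 0.876 between Ddx58 and Ifih1 and 0.688 between Ifih1 and Dhx58.

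Mavs, the adaptor that the helicases share, was not called in either knockout comparison, and its arrays were lower in knockouts in both. Ter119- CD71+ cells had 8.88, 8.68 and 8.73 in knockouts and 8.91, 9.59 and 9.40 in controls 2, 13 and 15. The groups did not overlap, but knockout 1 and control 2 were only 0.03 apart. The difference was -0.54 (SE 0.19, interval -0.96 to -0.12, limma adjusted p = 0.194). Ter119+ CD71+ cells had 9.78 and 9.66 in knockouts and 10.44, 10.03 and 10.85 in controls, a difference of -0.72 (SE 0.22, interval -1.19 to -0.25, adjusted p = 0.116). Separate arrays with knockouts lower were found for 11.6% of all genes in the first population, 10.7% in the second and 4.02% in both. The call came up without control 2 in the first population (adjusted p = 0.0452) and without control 13 in the second (0.0296).

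Erythroid markers were lower alongside Mavs. The mean of the 9 markers was 9.76 to 9.97 in knockout and 10.10 to 10.39 in control Ter119- CD71+ cells, where 1 of the 9, Epb42, fell (by 0.62, adjusted p = 0.0279). In that population 6 of the 9 had an unadjusted limma p under 0.05, beside 14.2% of all genes. The Ter119+ CD71+ means were 10.59 to 10.76 against 10.92 to 11.19, with 0 of 9 called by limma and 6 at an unadjusted p under 0.05, which 12.9% of all genes had in that population. The part of erythroid stage in the Mavs values was not tested.

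Tbk1 and Irf3, the kinase and the factor below MAVS, were not called in knockouts. Tbk1 was 8.52, 8.31 and 8.46 in knockout and 8.92, 8.17 and 8.34 in control Ter119- CD71+ cells, and the groups overlapped. The interval of the difference was -0.43 to 0.33 (adjusted p = 0.967). Later, in Ter119+ CD71+ cells, Tbk1 was 8.58 and 9.15 against 9.31, 9.37 and 9.26, below every control array, at -0.45 (SE 0.20, interval -0.88 to -0.03, adjusted p = 0.344). Most of that gap came from embryo 10. Irf3 was 7.29, 7.25 and 7.50 against 7.44, 7.67 and 7.49 in the first population and 6.99 and 7.71 against 7.34, 7.59 and 7.61 in the second. Its intervals were -0.53 to 0.16 (adjusted p = 0.729) and -0.55 to 0.22 (adjusted p = 0.828), and the embryo 10 array was the lowest of all 13.

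The endosomal receptors gave low and flat signals. Tlr3, the receptor for double-stranded RNA, was between 3.53 and 3.76 on all 13 arrays. Its knockout minus control difference was 0.12 (interval -0.07 to 0.31) in Ter119- CD71+ cells and 0.02 (interval -0.18 to 0.23) in Ter119+ CD71+ cells. Tlr7, the receptor for single-stranded RNA, was between 3.47 and 3.91, with differences of -0.14 (interval -0.38 to 0.09) and -0.21 (interval -0.47 to 0.05). These 2 genes and Ifnb1 had means under 5.26, the bound of the lowest 33.3% of genes, and the means of the other 7 were above it. Dhx58 passed through its knockout arrays alone, since all 8 of its control arrays lay under the bound. At such signals a change in RNA can go unseen.

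Myd88, the adaptor of TLR7 and of most surface TLRs, was not called in either population. It was 7.27, 7.60 and 7.86 in knockout and 7.64, 8.65 and 8.13 in control Ter119- CD71+ cells, at -0.56 (SE 0.32, interval -1.24 to 0.12, adjusted p = 0.481). Knockouts 10 and 11 had 6.35 and 7.81 in Ter119+ CD71+ cells, lying on either side of controls at 7.29, 7.28 and 7.69. That difference was -0.35 (interval -1.10 to 0.41, adjusted p = 0.811), and without embryo 10 it was 0.38.

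Ifnb1, the interferon gene at the end of the pathway, showed no difference beyond its spread. Ter119- CD71+ cells had 3.92, 4.16 and 4.38 in knockouts and 4.06, 4.34 and 4.09 in controls. Ter119+ CD71+ cells had 4.24 and 3.96 in knockouts and 4.12, 4.17 and 4.01 in controls. The arrays of both genotypes were interleaved in both populations. The difference was -0.01 (interval -0.31 to 0.29, adjusted p = 0.991) in the first and had an interval of -0.34 to 0.34 (adjusted p = 1) in the second. Its highest array was control 15 of the Ter119+ CD71med cells, at 4.49.

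As a set, the 10 genes had a median difference of -0.03 in Ter119- CD71+ cells, beside 0.00 over all genes. The corresponding values in Ter119+ CD71+ cells were -0.08 and 0.02. These medians run over genes that went both ways and 3 at low signal, so they say nothing of single members such as Mavs.

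The rest of the pathway was read through 9 gene lists. The 3 lists that hold type I, II and III interferons, surface TLR genes and NF-kappa-B targets had 0 genes called by limma in either population. Of 19 interferon genes 14 were measured on a probe set of their own, with 1 at an unadjusted p under 0.05 in Ter119- CD71+ cells and 0 in Ter119+ CD71+ cells. Their differences ran from -0.15 to 0.48 and from -0.23 to 0.24. Ifna5 was at -0.07 and -0.08 and Ifnl2 at -0.03 and -0.02. Interferon alpha genes are near-identical copies, so their signals may be shared. Among 14 NF-kappa-B targets, the inflammatory genes that the other arm of the pathway induces, 1 and 0 had an unadjusted p under 0.05, with medians of 0.10 and 0.16. Birc3, an inhibitor of apoptosis, was at 0.18 and 0.16, and the chemokine gene Cxcl1 at 0.06 and 0.21. Of 7 surface TLR genes 2 and 0 had an unadjusted p under 0.05, with Tlr2 at 0.03 and 0.11 and Tlr12 at 0.33 and -0.09.

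Other RNA sensors held the largest group that moved with the helicases. Of 15 measured, 5 rose and 0 fell in each population, all 5 of them from the OAS family, whose enzymes make 2-5A when they bind double-stranded RNA and so activate RNase L. Oasl2, an OAS-like family member, was 6.72 to 7.59 in knockout and 4.67 to 5.56 in control Ter119- CD71+ cells, a rise of 2.01 (SE 0.29, adjusted p = 0.0029). Its Ter119+ CD71+ arrays were at 9.43 to 9.92 against 5.99 to 7.0, a rise of 3.06 (SE 0.33, adjusted p = 0.000199). Oas1a rose by 1.69 (adjusted p = 0.000103) and 1.52 (0.000603), and Oas3 by 0.92 (0.00338) and 1.5 (0.000137). Oas1b rose by 1.26 and 1.44 and Oas2 by 0.87 and 1.30. In control Ter119+ CD71med cells Oasl2 was at 7.86 to 8.28, above the Ter119- CD71+ knockout arrays. Oas1a was at 5.58 to 6.04 there, Oas1b at 4.92 to 5.47, Oas2 at 5.68 to 5.76 and Oas3 at 5.97 to 6.33. All 5 kept their calls in each of the 6 and 5 single omissions, but with the reporter genotype as a covariate 1 of the 15 genes was called in each population, Oas1a in the first and Oas3 in the second. Adjusted for the mean of the myeloid markers, 1 gene (Oas1a) was called in Ter119- CD71+ cells and 5 in Ter119+ CD71+ cells. The list's median was 0.16 and 0.14, and 6 and 5 of the 15 had an unadjusted limma p under 0.05. Oasl1, also of the OAS family, was not called, at 0.16 (adjusted p = 0.709) and 0.08 (0.917). Nor were Eif2ak2, which encodes the kinase PKR that double-stranded RNA activates, at 0.37 (0.690) and 0.68 (0.409), and Zbp1, a sensor of Z-form nucleic acid, at 0.09 (0.884) and 0.24 (0.538). Helicases with wider roles in RNA metabolism were not called, among them Ddx3x at -0.03 and -0.11 and Ddx1 at 0.02 and -0.01.

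Of 21 regulators of the cytosolic sensors 1 rose and 1 fell in each population, where 2.21% and 2.56% of all genes were called. An unadjusted limma p under 0.05 was found for 5 and 6 of them, beside 14.2% and 12.9% of all genes. Their differences ran from -0.56 to 1.03 and from -0.76 to 1.3, with medians of -0.06 and -0.03. Ddx60, a helicase that promotes RIG-I signalling, rose from 3.84 to 4.42 in controls to 5.12 to 5.31 in knockouts of Ter119- CD71+ cells (difference 1.03, adjusted p = 0.00212). It rose by 1.30 in Ter119+ CD71+ cells (adjusted p = 0.000575), and both calls held in every single omission. They were lost with the reporter genotype as a covariate (adjusted p = 0.162 and 0.224), and the first also with the myeloid mean (0.286). Its control arrays all lay under the bound of the lowest 33.3% of genes. Zc3hav1, which encodes the antiviral zinc-finger protein ZAP, fell by 0.56 in Ter119- CD71+ cells (adjusted p = 0.0241, called in 2 of 6 omissions and with neither covariate). Mex3c, a ubiquitin ligase that acts on RIG-I, fell by 0.49 in Ter119+ CD71+ cells (adjusted p = 0.0217, called in 1 of 5 omissions and not with the reporter genotype). Pcbp2 was at -0.05 and 0.06 and Tax1bp1 at 0.15 and -0.24.

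Signalling below the adaptors had 19 of 24 listed genes measured, with 0 called by limma (2 at an unadjusted p under 0.05) in Ter119- CD71+ cells. In Ter119+ CD71+ cells 2 rose and 0 fell, with 5 of 19 at an unadjusted limma p under 0.05 (12.9% of all genes). Jun, a subunit of AP-1, rose from 6.15 to 6.37 in controls to 7.66 and 7.70 in knockouts, by 1.43 (adjusted p = 0.00536, and 0.0668 without embryo 10). Irf7, the interferon-induced relative of Irf3, rose by 1.12 (adjusted p = 0.0432), and its call held in 1 of 5 omissions. With the reporter genotype as a covariate, whose term comes from the Ter119- CD71+ cells, Jun was at 2.11 and Irf7 at 1.24. That fit does not test their calls. Irf7 had been at 0.64 in Ter119- CD71+ cells (adjusted p = 0.217). The coactivators of IRF3, Ep300 and Crebbp, were at -0.12 and -0.04 in the first population and -0.15 and 0.10 in the second. The medians were -0.03 and 0.04.

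Partners of the endosomal TLRs had 15 of 16 genes measured. In Ter119- CD71+ cells 6 of the 15 had an unadjusted limma p under 0.05, beside 14.2% of all genes. Of these 1 rose and 1 fell at the adjusted threshold, both cathepsins, proteases of the endosome and lysosome. Ctss rose from 5.32 to 6.50 in controls to 6.92 to 8.13 in knockouts, by 1.74 (adjusted p = 0.0148, and 0.0873 without embryo 10). Ctsb fell by 0.62 (adjusted p = 0.0153, and 0.102 without embryo 10). Myeloid markers were higher on the same knockout arrays. With their mean as a covariate Ctss was at 0.87 (adjusted p = 0.864) and Ctsb at -0.44 (0.844), and with the reporter genotype at 1.08 (0.536) and -0.58 (0.368). In Ter119+ CD71+ cells limma called 0, with 1 at an unadjusted p under 0.05, and Ctss was at 0.63 and Ctsb at -0.50. Hsp90b1, a chaperone of the TLRs, was at -0.04 and -0.08, and the kinase gene Irak1 at -0.28 and -0.09.

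Genes that IRF3 and interferon both induce gave 0 calls in Ter119- CD71+ cells by limma, with 2 of 6 at an unadjusted p under 0.05 (14.2% of all genes). There were 2 rises in Ter119+ CD71+ cells, with 3 of 6 at such a p (12.9% of all genes). Ifit1, which encodes a protein that binds RNA lacking the host cap methylation, was 8.08 and 9.31 in knockout and 5.10 to 6.18 in control Ter119+ CD71+ cells. It rose there by 2.98 (adjusted p = 0.000285) and was at 0.67 (adjusted p = 0.311) in Ter119- CD71+ cells. Rsad2, which encodes viperin, was 9.70 and 9.79 against 5.89 to 7.70, a rise of 2.98 (adjusted p = 0.00115), and was at 0.92 (adjusted p = 0.228) in the earlier cells. The population difference itself was 2.31 (interval 1.35 to 3.26) for Ifit1 and 2.06 (interval 0.92 to 3.2) for Rsad2, and did not pass over all genes (adjusted p = 0.172 and 0.355). With the reporter genotype as a covariate neither was called in Ter119+ CD71+ cells, at 3.27 (adjusted p = 0.0610) and 3.14 (0.159). Ifit2 was at -0.15 and -0.37 and Ccl5 at 0.06 and 0.08. Control Ter119+ CD71med cells had 7.86 to 7.92 for Ifit1 and 8.53 to 9.33 for Rsad2. For both genes these lay above the other control arrays and below the Ter119+ CD71+ knockout arrays.

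DNA sensing genes had 8 of 9 measured. limma called 0 in Ter119- CD71+ cells and 1 in Ter119+ CD71+ cells. In each population 3 of the 8 had an unadjusted limma p under 0.05, beside 14.2% and 12.9% of all genes. The called gene, Rnaseh2c, a subunit of RNase H2, fell by 0.59 (adjusted p = 0.0321, called in 1 of 5 omissions and not with the reporter genotype). Rnaseh2b, another subunit, was at -0.28 and -0.47 and Samhd1 at 0.00 and 0.13.

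**Figure D4:**
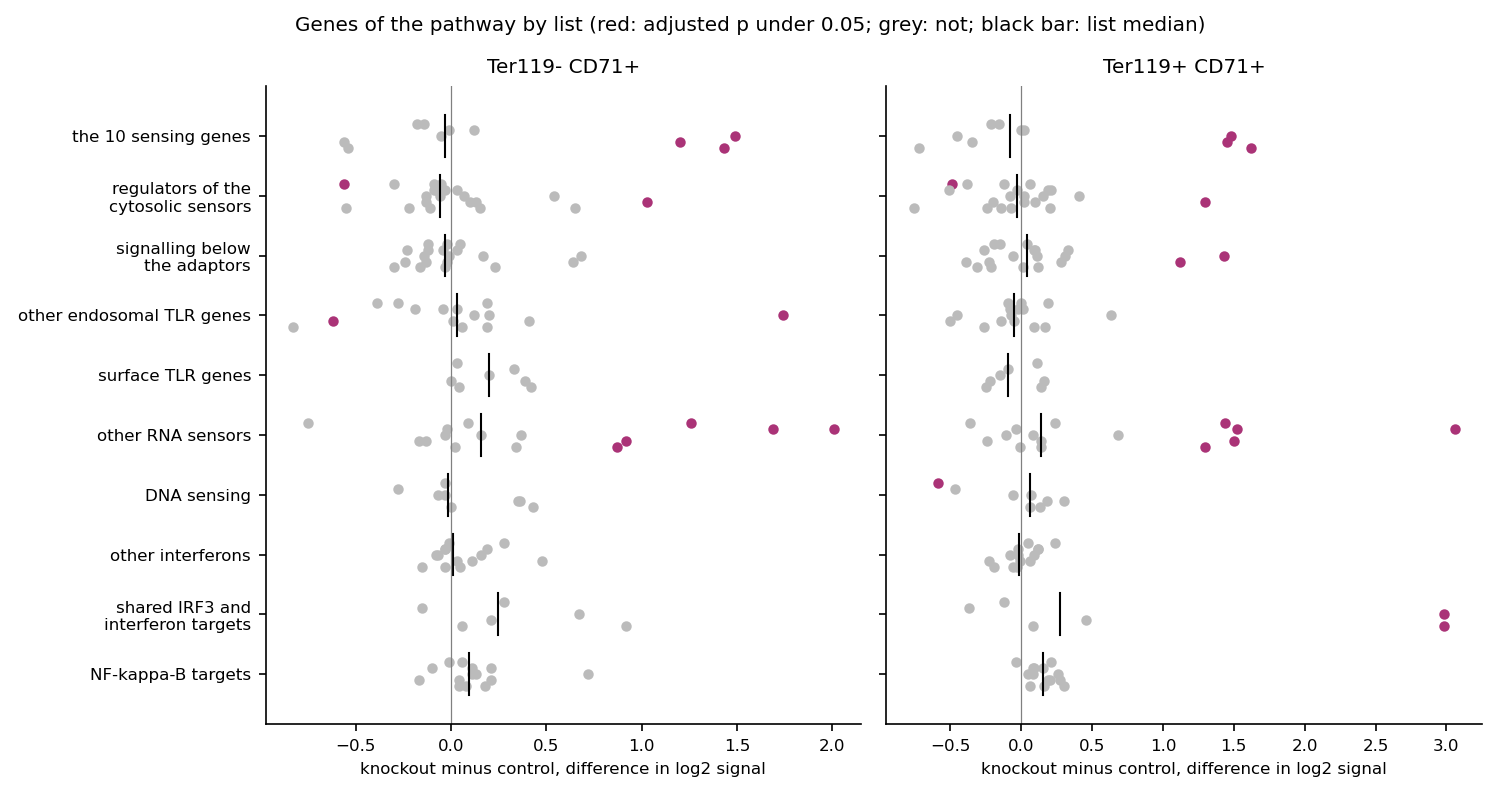
Knockout minus control in log2 signal (horizontal axes, which differ in range) for every measured gene of the 10 and of the 9 pathway lists (rows), in Ter119- CD71+ cells (left) and Ter119+ CD71+ cells (right); points are genes, purple-red where the adjusted p is under 0.05, and black bars are list medians. Genes called as higher gather in the rows of the 10 genes and of the other RNA sensors, at 0.87 to 3.06, while list medians lie between -0.09 and 0.27.

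Myeloid markers were higher on the same Ter119- CD71+ knockout arrays. Of 17 neutrophil and myeloid markers 4 rose there and 0 fell: S100a9 by 2.74, Mpo by 2.44, Ms4a3 by 1.26 and Fcnb by 1.24. An unadjusted limma p under 0.05 was found for 12 of the 17, beside 14.2% of all genes. Their median difference was 0.79. The mean of the 17 was 5.82, 7.06 and 5.77 in knockout embryos 1, 10 and 11 and 5.07 to 5.42 in controls, so embryo 10 stood apart. With this mean as a covariate 0 of the 10 genes were called in Ter119- CD71+ cells, and the differences were 0.76 for Ddx58, 1.23 for Ifih1 and 0.57 for Dhx58. In Ter119+ CD71+ cells 0 of the 17 were called by limma, with 0 at an unadjusted p under 0.05, and knockout means of 5.25 and 5.45 sat beside 5.2 to 5.40 in controls. The mean of the 3 sensor genes was 7.85 and 8.11 on those knockout arrays and 6.07 to 6.81 in those controls. Control Ter119+ CD71med cells had myeloid means of 5.79 and 5.86, like embryos 1 and 11, with sensor means of 6.77 and 6.93 against 7.47 and 7.73. Population and genotype both differ between these arrays. The part of myeloid cells in the sensor values was not tested.

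Markers of cells that often carry these sensors were not called. limma called 0 of 16 macrophage, 0 of 10 dendritic, 0 of 9 lymphoid, 0 of 7 endothelial and 0 of 5 megakaryocyte markers in either population. At an unadjusted p under 0.05 there were 3, 0, 0, 0 and 1 of them in Ter119- CD71+ cells and 2, 0, 0, 0 and 4 in Ter119+ CD71+ cells. The 5 megakaryocyte markers had differences from -0.89 to 0.26 in Ter119+ CD71+ cells (median -0.39). Their mean there was 6.28 to 6.3 in knockouts and 6.52 to 6.64 in controls. The 16 macrophage markers had a median difference of 0.05 in Ter119- CD71+ cells. Csf1r, 1 of them, was 5.46 to 5.54 in knockout and 4.93 to 5.27 in control Ter119- CD71+ cells, without overlap. Siglech, a marker of plasmacytoid dendritic cells, was 5.53 to 5.82 against 5.54 to 5.64. Of 8 hepatocyte markers 0 were called in the first population, with 2 at an unadjusted p under 0.05, and Apoa1 fell in the second (by 0.60, adjusted p = 0.0254). In that second population 5 of the 8 had an unadjusted limma p under 0.05, beside 12.9% of all genes. All 8 were lower in knockouts there, by -1.06 to -0.16 (median -0.47). Their mean was 6.34 to 6.72 on those knockout arrays and 6.98 to 7.26 on the controls.

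**Figure D5:**
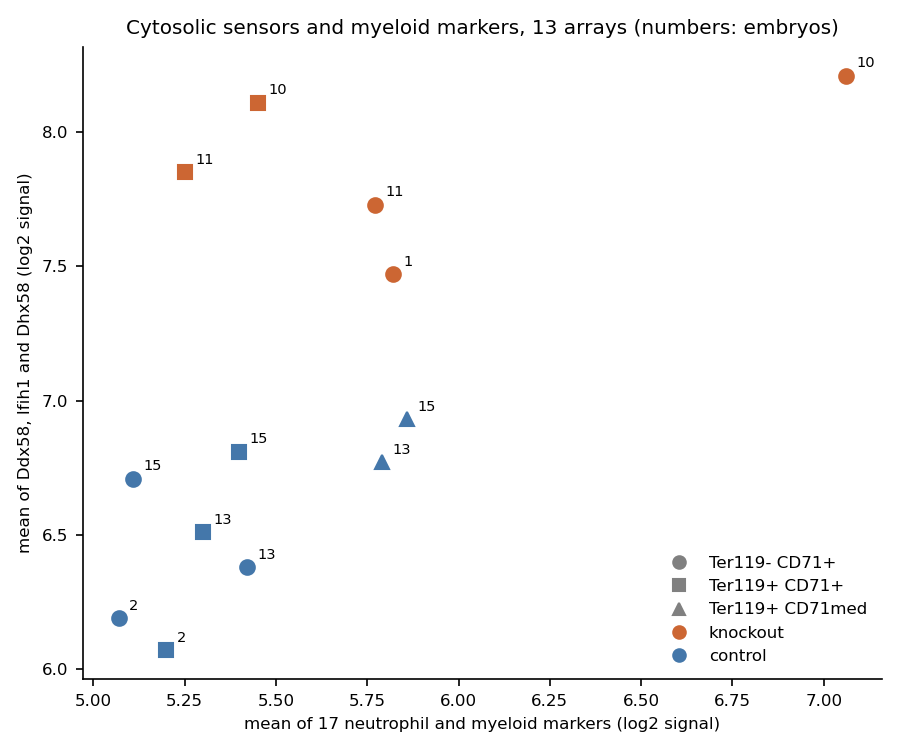
Mean log2 signal of Ddx58, Ifih1 and Dhx58 (vertical axis) against the mean of 17 neutrophil and myeloid markers (horizontal axis) on the 13 arrays; colours give the genotype, shapes the population and numbers the embryo. Knockout arrays lie at 7.47 or more and control arrays at 6.93 or less on the vertical axis, and the Ter119- CD71+ array of embryo 10 is farthest to the right, at 7.06.

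In control cells Mavs and Tbk1 rose from Ter119- to Ter119+ CD71+ cells, and no sensor gene was called. These were 2 of the 10, where 19% of all genes were called and 7.27% rose. The share of the 10 that was called was thus close to that of all genes. Mavs went from 8.91 to 10.44 in embryo 2, from 9.59 to 10.03 in embryo 13 and from 9.40 to 10.85 in embryo 15, a mean rise of 1.14 (SE 0.19, limma adjusted p = 0.000726) or 2.21-fold. Tbk1 went from 8.92 to 9.31, from 8.17 to 9.37 and from 8.34 to 9.26, a rise of 0.84 (SE 0.18, limma adjusted p = 0.00362) or 1.79-fold. Both were higher in 3 of 3 embryos, and both calls held in all 6 single omissions and under the other 10 settings run. In knockouts Mavs went from 8.68 to 9.78 in embryo 10 and from 8.73 to 9.66 in embryo 11. Of the 10 genes it was the one called there (0.96, SE 0.22, limma adjusted p = 0.0111), where 10.7% of all genes were and 4.5% rose, but not without embryo 10 in the later population (adjusted p = 0.0949). Tbk1 was at 0.43 (adjusted p = 0.221) in this step.

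Sensor genes were not called between these control stages, with Ddx58 at group means of 6.11 and 6.09, Ifih1 at 0.42 (adjusted p = 0.430) and Dhx58 at -0.28 (adjusted p = 0.448). Myd88 was lower in 3 of 3 embryos after the step, at -0.72 (SE 0.32, adjusted p = 0.151). Other lists moved with this step as well. Of the 9 erythroid markers 6 rose, and so did 6 of 8 hepatocyte and 3 of 5 megakaryocyte markers, and their part in the rise of Mavs and Tbk1 was not tested. The hepatocyte mean was 6.33 to 6.56 before and 6.98 to 7.26 after it.

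From Ter119+ CD71+ to Ter119+ CD71med controls limma called 0 of the 10 genes, with 2 at an unadjusted p under 0.05, where 13.3% of all genes were called and 27.5% had such a p. Ifih1 was at 0.73 (adjusted p = 0.170) and Tbk1 at 0.49 (adjusted p = 0.128). In embryos 13 and 15, the 2 measured at both stages, Tbk1 went from 9.37 to 9.87 and from 9.26 to 9.74, and Ifih1 from 8.82 to 9.25 and from 9.30 to 9.43. Tbk1 thus ended the control series with its highest arrays, while Mavs at 10.48 and 10.67 lay within the range of the stage before. Myd88 ended at 7.02 and 6.82, below all other control arrays.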

How the data were processed

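RNA from sorted cells was labelled with biotin and hybridised to 13 arrays. The deposited values are log2 signals that the authors made with RMA (background correction, quantile normalization, probe summary), per the submitters' processing notes, which also name mm9 without a role; versions are not given in the sources used here. Of 35556 probe sets 21789 listed 1 symbol, 1621 several and 12146 none. Per gene, the probe set with the highest mean was kept (19938 genes). limma 3.58.1 (R 4.3.3) was fitted to 5 group means on all arrays (8 residual degrees of freedom), with eBayes and two-sided p-values adjusted by Benjamini-Hochberg over all genes for each of 6 comparisons. P-values set a difference against the spread between arrays of a group, pooled over the 5 groups. That spread is drawn by eBayes toward a value shared by all genes. The p-values treat the 13 arrays of 6 embryos as independent. A gene as steady within embryos as Ddx58 thus has fewer independent values than the degrees of freedom state. The number of arrays limits precision. The named genes were the 10 genes, called genes of the pathway lists (at most 4 per list and comparison), up to 2 uncalled genes per list with the highest mean, called markers (at most 4), and the 3 nearest genes of each called sensor. Other names (Adar, Xist, Tfrc, Klf1, Gata1, Csf1r, Siglech, Oas1b, Oasl1, Eif2ak2, Zbp1, and each list gene shown after a call in the other population) were added. The genes and lists were chosen with earlier results of these data known. The tests were also run on simulated data with known changes. For the knockout comparisons these data held no embryo effect, so they do not bear on arrays that share embryos. Same-embryo arrays had residual correlations of -0.225 to 0.350 over 9 pairs, and, as arrays of the same animal, were also fitted with embryo as a block, in alternatives.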

Additional observations from a re-analysis of the deposited data

How the results depend on the processing

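Calls depended on single arrays and on covariates more than on scaling. Of 380 values recomputed under 11 other settings, 347 kept direction and side of the threshold, 18 lost the call, 3 gained it and 12 changed sign; of 229 with 1 array left out the counts were 196, 7, 5 and 21. The 3 genes called in Ter119- CD71+ cells became 0 with the R26EYFP covariate, 0 with the myeloid covariate and 1 to 4 with an array left out. The 3 in Ter119+ CD71+ cells became 0 with array weights, 0 with the R26EYFP covariate, 1 when only the compared groups were fitted and 1 to 4 with an array left out. The 0 from Ter119+ CD71+ to CD71med became 1 (Tbk1) with only those groups and 0 to 1 in omissions; the 1 of the knockout step became 0 with array weights, 0 with the myeloid covariate and 0 to 2 in omissions. The control step kept 2 to 3 and the population difference 0. Median centring took Ifih1 in Ter119+ CD71+ cells to an adjusted p of 0.0638, and array weights called Mavs in Ter119- CD71+ cells (0.0200). Embryo as a random replicate block (consensus correlation 0.0039) changed no call of the 10 genes: 3, 3, 0, 2, 0 and 1 were called. That fit uses 1 correlation for all genes, so it cannot allow for a gene as steady within embryos as Ddx58. Embryo as a fixed replicate block, added after the data were seen, gave 0, 2, 0 and 1 for the population difference and the 3 steps; it cannot give a knockout comparison.

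Small differences changed sign: Tbk1 in Ter119- CD71+ cells was 0.02 after a second quantile normalization, 0.05 with array weights, 0.04 with R26EYFP and 0.23 with the myeloid covariate; Ifnb1 was 0.02 with array weights in both populations; Tlr3 in Ter119+ CD71+ cells was -0.01 after quantile normalization and -0.03 after centring; the population difference of Ifih1 was 0.09 with array weights and 0.24 with the myeloid covariate, and that of Dhx58 -0.02 with R26EYFP and -0.02 with embryo as a fixed replicate block. With an array left out, Tbk1 ran from -0.20 to 0.17 and Ifnb1 from -0.12 to 0.10 in Ter119- CD71+ cells, and Myd88 from -1.08 to 0.38, Irf3 from -0.52 to 0.20 and Ifnb1 from -0.14 to 0.14 in Ter119+ CD71+ cells. The population difference ran from -0.14 to 0.50 for Ddx58, -0.46 to 0.34 for Ifih1 and -0.02 to 0.54 for Dhx58, and Myd88 in the knockout step from -1.23 to 0.23. The cause of these changes was not tested.

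Over all genes, the 441 called in Ter119- CD71+ cells became 286 after centring, 3151 with array weights, 33 with R26EYFP, 23 with the myeloid covariate and 135 to 1006 in omissions. The 510 in Ter119+ CD71+ cells became 128 with array weights, 17 with R26EYFP, 116 with only the compared groups and 162 to 1546 in omissions. With array weights the 3789 of the first control step became 6349 and the 2143 of the knockout step 1007; with the myeloid covariate the latter became 864 and the 2656 of the second control step 1390. The 2 of the population difference became 0 to 4 by setting and 1 to 12 in omissions. The low filter left Tlr3, Tlr7 and Ifnb1 without a value, and the R26EYFP covariate does not bear on the control steps. In the knockout comparisons its term rests on embryo 1, so the counts with it do not test the reporter.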
